A study of Rattus norvegicus with 6 samples.

Results

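Cadherins, vimentin and fibronectin were examined in BRIN-BD11 pancreatic beta cells with and without MS-275, as 4 genes of the 22250 listed in each count table. They were taken by Ensembl identifier of the rat assembly Rnor_6.0, under a rule that used no measured value. The list itself was made with earlier results of these data known. The members were Cdh1 (ENSRNOG00000020151), which encodes E-cadherin, Cdh2 (ENSRNOG00000015602), which encodes N-cadherin, Vim (ENSRNOG00000018087), which encodes vimentin, and Fn1 (ENSRNOG00000014288), which encodes fibronectin. BRIN-BD11 is a rat line of insulin-secreting cells made by fusing RINm5F cells with islet cells of the NEDH strain, and all libraries came from this 1 line at passage 25. The 3 WT libraries came from cells given no histone deacetylase inhibitor, and the 3 MS-275 libraries from cells given 5 µM MS-275 (entinostat), an inhibitor of class I histone deacetylases, for 16 h in complete medium. The labels give DMSO as the solvent of MS-275 and name no vehicle for WT. The paper gives DMSO for the controls, at another concentration than the labels give for MS-275. Whether DMSO was matched is thus not known, and any difference in it cannot be told apart from MS-275. Nothing in the sources used here says that the replicates were separate cultures, so the p-values measure only the spread between these libraries, which may be technical.

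Classical cadherins are transmembrane proteins that hold neighbouring cells together in the presence of calcium, and their tails bind catenins, which link them to actin. E-cadherin is the cadherin of most epithelia, whereas N-cadherin is typical of neurons and mesenchyme and is also present in pancreatic islets. Vimentin is the intermediate filament protein of mesenchymal cells, and fibronectin is a secreted matrix glycoprotein that cells bind through integrins. In an epithelial-to-mesenchymal transition Cdh1 classically falls while Cdh2, Vim and Fn1 rise. Repressors of Cdh1 such as Snail recruit histone deacetylases to its promoter. The comparison of WT with MS-275 therefore sets 1 epithelial gene beside 3 genes that classically rise in this transition, of which Cdh2 is also an islet gene.

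All 4 genes were higher in the MS-275 libraries, the epithelial gene Cdh1 together with Cdh2, Vim and Fn1. Cdh1 rose 7.24-fold, Fn1 5.56-fold and Cdh2 2.48-fold, and Vim went from 3 counts in the 3 WT libraries together to 95 in the 3 MS-275 libraries. Each had an adjusted p under 0.05 in edgeR's quasi-likelihood test (Benjamini-Hochberg over all genes tested), and each also passed an absolute log2 fold change of 1. Among all 12596 genes tested, 32.1% were higher with MS-275 at an adjusted p under 0.05, and 13.9% were higher when the fold change threshold was added. The 4 genes were listed with earlier results of these data known, and Vim entered the test only through its MS-275 libraries, so the count of 4 is a description. In RNA from whole cultures, more cells with a transcript and more transcript per cell cannot be told apart.

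The libraries held between 5230555 and 9172422 counts on genes, and these counts were 29.2% to 31.4% of all alignments in a table. Levels are given as CPM, counts scaled to a library of 1000000 counts on genes after TMM, with scaling factors between 0.976 and 1.03. No transcript lengths of the authors' annotation were used, so the levels of different genes were not ranked against each other. In RefSeq's annotation of the later assembly GRCr8, 0 other genes overlap the span of any of the 4 genes. The label of a beta cell line was not checked against beta cell markers here, because the count tables list identifiers only and the reference tables pair none of them with a gene symbol. For the same reason the catenins, keratins, claudins, collagens, integrins and the Snail, Zeb and Twist factors were not analysed here.

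E-cadherin is the epithelial member. Cdh1 was counted 401, 335 and 249 times in WT replicates 1, 2 and 3, and the MS-275 libraries gave 1929, 1707 and 2561 counts in the same order. Scaled for library size these were 50.5, 41.2 and 43.1 CPM in WT and 356, 335 and 286 CPM with MS-275. The groups were far apart, since the lowest MS-275 library was 5.67 times the highest WT library, while within the groups WT replicate 1 was the highest control and MS-275 replicate 3 the lowest treated library. The means were 44.9 ± 4.90 CPM (SD, n = 3) in WT and 326 ± 35.9 CPM (SD, n = 3) with MS-275. The log2 fold change was 2.86 (standard error 0.10, 95% interval 2.63 to 3.08, adjusted p = 1.51e-10 in edgeR's quasi-likelihood test). By size of increase Cdh1 stood at rank 333 of the 12596 genes tested, and by its p-value at rank 1. Its relative spread was alike in both groups, with a coefficient of variation of 10.9% in WT and 11.0% with MS-275, against counting errors between 1.98% and 6.34% in single libraries.

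**Figure D1:**
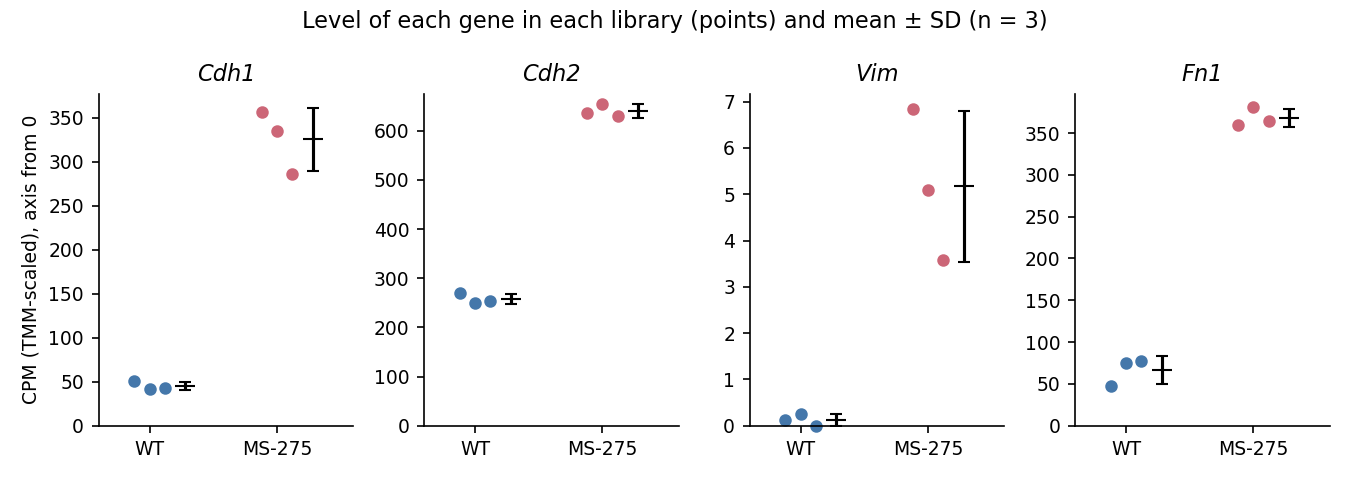
Each panel plots 1 gene, with its level in TMM-scaled CPM on a linear axis from 0, the 3 WT libraries in blue, the 3 MS-275 libraries in red (replicates 1 to 3 from left to right) and the mean ± SD beside them in black. In every panel all 3 MS-275 points lie above all 3 WT points, an order that 34.1% of the 12596 genes tested also had. Vim is at most 0.246 CPM in WT and between 3.58 and 6.83 CPM with MS-275.

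Cdh2, the gene of N-cadherin, had the smallest fold change of the 4 genes and the tightest replicates. Cdh2 counts were 2141, 2029 and 1468 in WT and 3440, 3340 and 5629 with MS-275. In CPM these were 269, 249 and 254 in WT and 635, 655 and 629 with MS-275. No treated library came near the controls, and the lowest was 2.34 times the highest WT library. The WT mean was 258 ± 10.5 CPM (SD, n = 3) and the MS-275 mean 640 ± 13.6 CPM (SD, n = 3). The increase was 1.31 on the log2 scale (standard error 0.07, 95% interval 1.16 to 1.47, adjusted p = 1.42e-09 in the same edgeR test), at rank 1278 by size. The spread between replicates was 4.07% of the mean in WT, where the counting errors were between 2.16% and 2.61%, and 2.12% with MS-275, where they were between 1.33% and 1.73%.

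Fibronectin is the matrix member. Fn1 had 376, 612 and 445 counts in WT and 1946, 1940 and 3264 counts with MS-275. Its levels were 47.3, 75.2 and 77.0 CPM in WT and 359, 381 and 365 CPM with MS-275. The treated libraries lay close together, whereas WT replicate 1 lay well below the other two controls, opposite to its place for Cdh1. The means were 66.5 ± 16.7 CPM (SD, n = 3) in WT and 368 ± 11.0 CPM (SD, n = 3) with MS-275, which is a coefficient of variation of 25.0% against 2.98%. The log2 fold change was 2.47 (standard error 0.15, 95% interval 2.15 to 2.80, adjusted p = 5.35e-08 in the edgeR test), at rank 454 by size. Without WT replicate 1 it was 2.28, with a standard error of 0.09.

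Vim, the gene of the intermediate filament protein vimentin, was close to undetected in the controls. WT replicates 1, 2 and 3 gave 1, 2 and 0 Vim counts, against 37, 26 and 32 counts in the MS-275 libraries. These were 0.126, 0.246 and 0 CPM in WT and 6.83, 5.10 and 3.58 CPM with MS-275. Even with MS-275 the level was low, with a mean of 5.17 ± 1.63 CPM (SD, n = 3). Relative to the mean, this spread was 31.5%, the widest of the 4 genes with MS-275, and the counting errors of these libraries were between 16.4% and 19.6%. Over the summed counts, with 3 in WT and 95 with MS-275, the ratio of the scaled counts was 35.6, with an exact conditional 95% interval from 11.8 to 176 that covers counting error only. The fitted log2 fold change was 5.02 (standard error 0.56, 95% interval 3.84 to 6.21, adjusted p = 1.50e-06 in the edgeR test). This fitted value depends on the prior count added before the fold change is taken. With a prior count of 2 in place of edgeR's default it was 3.64, below that interval. The standard error is computed from the fitted value, so the interval shifts with the prior count too. As a fold the interval ran from 14.28 to 74.05. This is narrower than the interval for counting error alone, so it understates the uncertainty. DESeq2 gave 5.23 with a standard error of 0.95. Without WT replicate 2, which held 2 of the 3 control counts, edgeR's fitted value was 5.79. The WT libraries alone would not have passed the filter on low counts, which asks for about 1.49 CPM in 3 libraries.

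Of the 4 genes the RefSeq promoter table held Vim only, so the Vim promoter alone is shown. Cdh1, Cdh2 and Fn1 were not found in that table. The stretch covers the 250 bases before the annotated transcription start on the plus strand of GRCr8, chr17:81577011-81577260, which is not the assembly the counts were made on. Capitals mark the matches to the searched motifs, in order a GC box, a CCAAT box and a TATA box.
Vim promoter: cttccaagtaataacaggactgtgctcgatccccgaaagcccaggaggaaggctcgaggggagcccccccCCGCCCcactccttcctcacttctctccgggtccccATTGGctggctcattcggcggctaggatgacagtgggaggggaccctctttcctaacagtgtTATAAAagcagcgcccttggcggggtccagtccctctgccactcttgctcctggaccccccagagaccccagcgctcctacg

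Both strands were searched for 4 motifs, and none of the matches overlapped another. The GC box GGGCGG, a site of Sp factors, was matched once on the opposite strand, its match beginning 180 bases before the start. The CCAAT box, bound by NF-Y, was matched once on the opposite strand from 144 bases before the start, and the TATA box TATAAA once on the sense strand from 82 bases before it. The E-box CAGGTG, to which Snail and Zeb repressors bind, was not among the letters of this window. Among all 33469 promoters of the table, cut to the same 250 bases, 30.5% held the GC box, 34.0% the CCAAT box, 12.9% the TATA box and 15.9% the E-box. The GC content of the Vim stretch was 62.4%, against a median of 51.2% over all promoters, and it held 11 CpG dinucleotides against a median of 5. Of all promoters, 79.8% had a lower GC content and 66.4% held fewer CpG dinucleotides. A match of letters is a description of the sequence and not a measured binding site.

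Every MS-275 library was above every WT library for all 4 genes, which was also so for 34.1% of the genes tested. Exact permutation tests gave p = 0.1 (two-sided) for each gene, the smallest p that 3 libraries against 3 allow. Among the 3 genes that would have passed the filter on their WT libraries alone, the fitted increase was highest for Cdh1, then Fn1, then Cdh2. The 95% intervals of Cdh1 and Fn1 overlapped, while those of Fn1 and Cdh2 did not. Vim was not placed in this order, since its fitted increase rests on 3 WT counts and on the prior count. The median log2 fold change of all genes tested was -0.01, and each of the 4 genes lay above 0 in the plot of change against level.

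**Figure D2:**
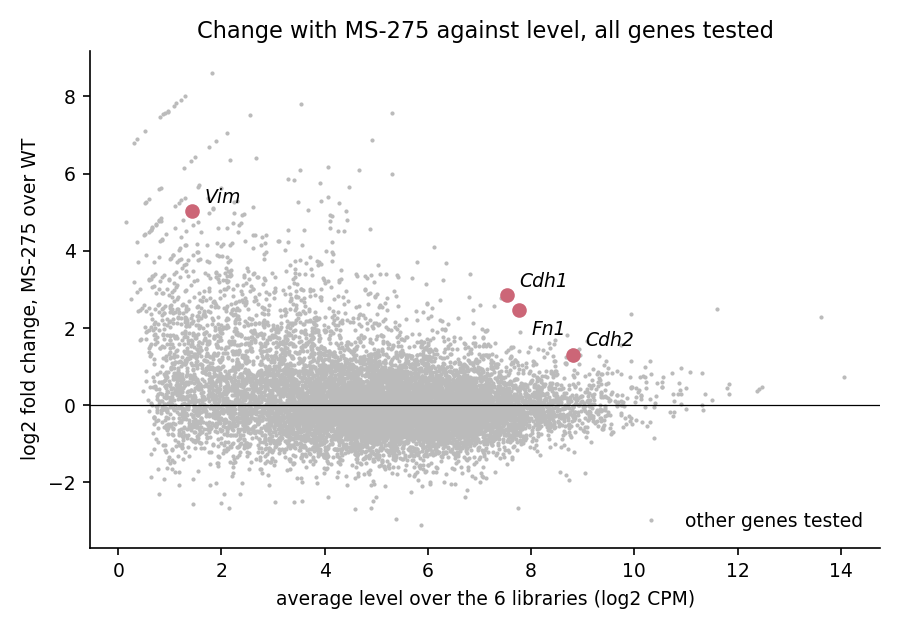
Each grey point is 1 of the 12596 genes tested, with its average level over the 6 libraries in log2 CPM on the x axis and its log2 fold change of MS-275 over WT on the y axis, and the 4 members are in red. Cdh1 (2.86), Fn1 (2.47), Cdh2 (1.31) and Vim (5.02) all lie above 0.

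A cadherin balance was read as the ratio of Cdh1 to Cdh2 counts within each library, which needs no scaling between libraries. If the mix of transcript lengths of each gene was alike in both groups, which was not tested, length cancels from the difference between them. Cdh1 made up 15.8%, 14.2% and 14.5% of the counts of both cadherins in WT replicates 1, 2 and 3, against 35.9%, 33.8% and 31.3% with MS-275. The balance of counts thus moved toward Cdh1 although Cdh2 also rose, and the groups did not overlap. These are RNA counts, and no protein of the 4 genes was measured here. On the log2 scale the ratio was -2.52 ± 0.10 (SD, n = 3) in WT and -0.98 ± 0.15 (SD, n = 3) with MS-275, a difference of 1.54 or 2.92-fold. No p is given, since the ratio is a score made from the members.

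Fn1 counts also rose more than those of Cdh2. The log2 ratio of Fn1 to Cdh2 counts was -1.99 ± 0.45 (SD, n = 3) in WT and -0.80 ± 0.02 (SD, n = 3) with MS-275, a difference of 1.19. Its values were -2.51, -1.73 and -1.72 in WT and -0.82, -0.78 and -0.79 with MS-275, with no overlap. Without WT replicate 1 the difference was 0.93.

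The increases of Cdh1 and Fn1 could not be told apart with all libraries. The log2 ratio of Cdh1 to Fn1 counts was 0.09, -0.87 and -0.84 in WT replicates 1, 2 and 3, against -0.01, -0.18 and -0.35 with MS-275. WT replicate 1 lay above all treated libraries and the other two controls lay below them. The difference of the means was 0.36, under the pooled SD of 0.41. This value rested on the controls kept, since it was 0.67 with no overlap without WT replicate 1, 0.19 without WT replicate 2 and 0.21 without WT replicate 3.

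**Figure D3:**
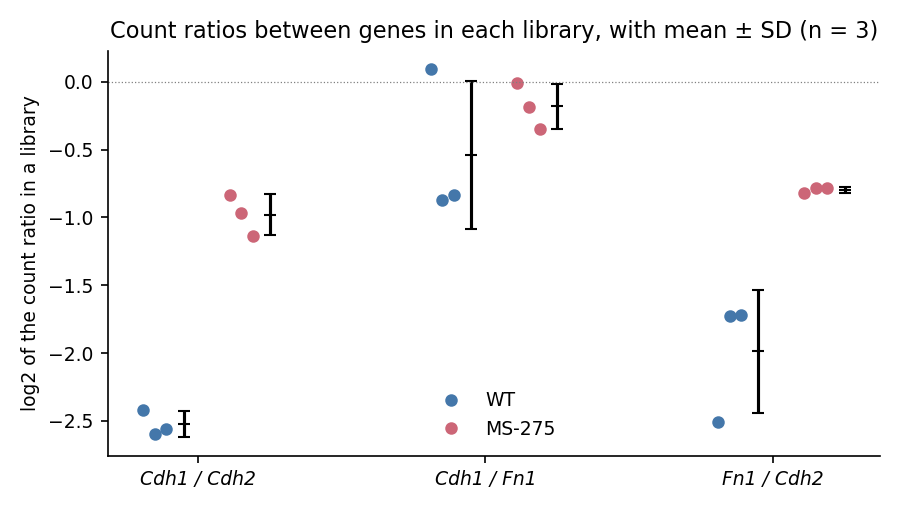
The log2 ratio of the counts of 2 genes within a library is plotted for 3 pairs of genes, with WT libraries in blue, MS-275 libraries in red and the mean ± SD (n = 3) in black. The Cdh1 to Cdh2 ratio separates the groups (-2.52 against -0.98), as does that of Fn1 to Cdh2 (-1.99 against -0.80), whereas for Cdh1 to Fn1 WT replicate 1 (0.09) lies above all MS-275 libraries.

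The 4 increases held under every setting tried. With 1 library left out at a time the log2 fold change was between 2.79 and 2.96 for Cdh1, between 1.29 and 1.35 for Cdh2, between 2.28 and 2.59 for Fn1 and between 4.63 and 5.79 for Vim. Under these and the other settings the highest adjusted p of any of the 4 genes was 3.68e-05, from edgeR's quasi-likelihood test without MS-275 replicate 2 (Vim). Vim passed the filter of the main fit only through its MS-275 libraries, so its p-values are a description. Among Cdh1, Cdh2 and Fn1 the highest adjusted p was 3.19e-05, from the same test without MS-275 replicate 3 (Fn1).

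**Figure D4:**
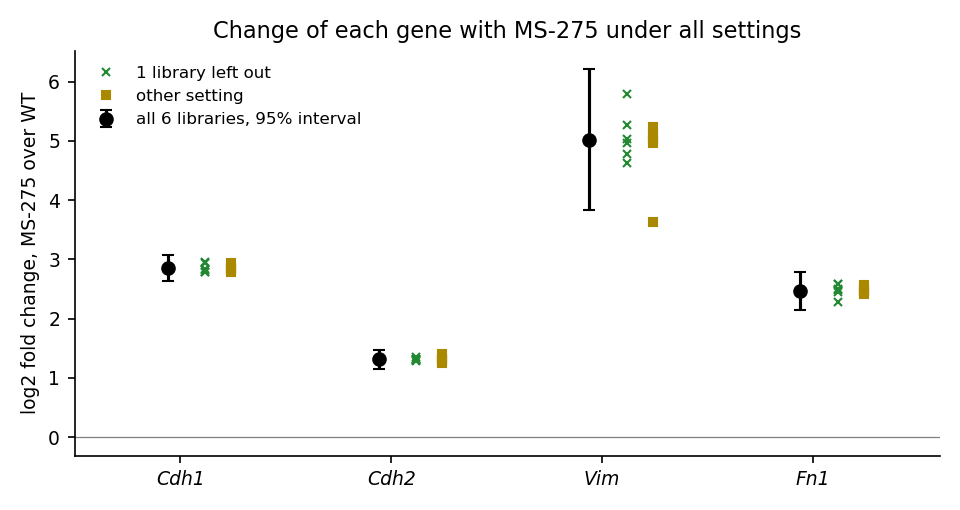
For each gene the black point is the log2 fold change of MS-275 over WT from all 6 libraries with its 95% interval, green crosses are the fits without 1 library and squares the other settings. All values lie above 0, and the square of Vim at 3.64 is the fit with a prior count of 2.

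The pattern over the 6 libraries was compared with that of every other tested gene with a mean of at least 10 CPM, by Pearson's r of the log2 CPM. The gene most like Cdh1 was ENSRNOG00000007456 (r = 0.99996, n = 6 libraries), with 19.6 ± 2.69 CPM (SD, n = 3) in WT and 207 ± 27.4 CPM (SD, n = 3) with MS-275. The gene most like Cdh2 was ENSRNOG00000007041 (r = 0.99980, n = 6 libraries), with 5.87 ± 0.809 CPM in WT and 62.5 ± 5.24 CPM with MS-275 (SD, n = 3 each). The 6 libraries fall into 2 groups, so any gene with a clear step between them scores high, and the genes with an r over 0.99 numbered 402 for Cdh1, 353 for Cdh2, 139 for Vim and 73 for Fn1. The highest r was 0.99957 for Vim and 0.99952 for Fn1.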

How the data were processed

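Per the paper's methods, reads of structural RNA, low complexity and adapters were removed with bowtie2, and what was left was mapped to Rnor_6.0 by STAR. The authors deposited raw counts of reads per gene, 1 table a library. The strand setting and annotation release are not given in the sources used here. The paper names featureCounts, whereas each table ends with 5 summary lines of the kind htseq-count writes, which were dropped. Reads aligned to more than 1 place are not in the counts. A further table of the authors' own DESeq2 comparison (group means, fold changes and p-values) was not used.

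The filterByExpr function of edgeR 4.0.16 (R 4.3.3) kept 12596 of 22250 genes. These were scaled by TMM and tested with glmQLFit (robust) and glmQLFTest without a block, and called at a Benjamini-Hochberg adjusted p under 0.05. The standard error is the log2 fold change divided by the square root of F. Alternatives were library sizes alone, upper-quartile scaling, DESeq2 1.42.0, no filter, a mean of at least 1 CPM, a replicate block, each library left out, and stricter thresholds. A prior count of 2 for Vim was added after seeing the data. Both tools were tested on simulated data. No 2 replicates were copies, since the chi-square per degree of freedom between them was at least 1.78. It was 11.1 between MS-275 replicates 1 and 3 and at most 4.61 in the other pairs. The genes named are the 4 members and, for the first 2 of them, the most alike gene. The members and lists were chosen with earlier results of these data known.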

Additional observations from a re-analysis of the deposited data

How the results depend on the processing

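Of 84 values recomputed with a changed setting, 83 neither turned nor crossed their limit. The exception was the number of genes called among all tested, which was 8005 at an adjusted p under 0.05 and 2404 when the log2 fold change also had to reach 1 in size, a stricter rule by construction. For a fold change the limit was an adjusted p of 0.05, whatever its size. The prior count of 2 leaves the test of Vim as it was, so that value was bound to count as unchanged. The Cdh1 to Fn1 ratio was not among the 84 values. All 4 members were called under each of the 14 alternatives for the number of genes called. That number counts increases and decreases together. It ran from 2404 of 12596 genes tested, with the fold change threshold, to 8641 of 16846 without a filter. Increases alone were 4039 genes in the main fit and 1754 with the fold change threshold. In the main fit Vim passed the filter only through its MS-275 libraries. Over all genes tested the median log2 fold change was -0.08 without TMM and 0.08 after upper-quartile scaling, and Cdh2, the member with the smallest change, had 1.25 and 1.40 there. Without a filter on low counts, Vim had 5.00. With 1 library left out, between 7016 and 7983 genes were called, and the difference in the Cdh1 to Cdh2 log2 ratio was between 1.47 and 1.62. Depth limits Vim, whose fitted fold was 32.5 with all libraries, 55.2 without WT replicate 2 and 12.5 with a prior count of 2.

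The libraries share only their replicate numbers. Correlations of the deviations from the group means between libraries of 1 number were 0.16, -0.02 and 0.13, and no source says that a number marks a shared day. With the replicate block the log2 fold changes were 2.86 for Cdh1, 1.31 for Cdh2, 5.12 for Vim and 2.50 for Fn1, and 8255 genes were called. The counts of pathway genes set as a result were not run, since no table used here pairs their identifiers with symbols.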
